A study of Mus musculus with 6 samples.

Results

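The 10 genes described here encode the machinery with which a dividing myoblast decides between another cell cycle and exit. They are the D cyclins Ccnd1, Ccnd2 and Ccnd3, the Cip/Kip inhibitors Cdkn1a (p21) and Cdkn1b (p27), the INK4 inhibitors Cdkn2a (p16Ink4a and p19Arf), Cdkn2b (p15Ink4b) and Cdkn2c (p18Ink4c), and the pocket proteins Rb1 and Rbl1 (p107). They were listed by symbol, with earlier results of these data known, and make up 10 of the 55536 genes in the count tables. D cyclins bind CDK4 and CDK6 and phosphorylate the pocket proteins, which then release E2F transcription factors and allow S phase. INK4 proteins block CDK4 and CDK6, and p21 and p27 block the later cyclin-CDK complexes. In muscle, p21 and RB are best known for holding differentiating myocytes outside the cycle, where Cdkn1a is induced with the myogenic programme.

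The measurements were bulk RNA-seq gene counts from 6 samples of activated satellite cells, the stem cells of skeletal muscle. The 3 cKO samples came from Pax7CreErt2;Hira fl/fl mice and the 3 control samples from Pax7CreErt2;Hira fl/+ mice, which the sample labels call WT. Cre was expressed from Pax7 and needed tamoxifen, so both groups carried the driver and received the drug (2 weeks of tamoxifen diet, then 1 week of regular food), and control cells in which Cre had acted kept 1 intact Hira allele. HIRA is the chaperone that deposits histone H3.3 independently of replication. The mice were adult males of 8 to 12 weeks on a C57BL/6J background. Their tibialis anterior muscles were injured with BaCl2, and the cells were sorted on day 5 as CD34 and ITGA7 positive and CD45, TER119 and SCA1 negative. The sorted cells were grown for 48 h in medium with fetal calf serum and the growth factor basic FGF before RNA extraction. The comparison asks how loss of HIRA changed the RNA of these genes in cultured activated cells.

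Total counts ranged from 47944477 to 63323577 per sample. The targeted gene, Hira, was counted 375, 348 and 341 times in control and 161, 293 and 272 times in cKO. It was lower in cKO by 0.43 on the log2 scale (SE 0.12, adjusted p = 0.0237) with no overlap of the groups. The gene-level count covers all exons, deleted or not, and transcript remained in every cKO sample. In satellite cells of cKO mice the paper reports a sharp drop of Hira by RT-qPCR, larger than the one counted here. It also reports no HIRA protein detected by staining. Why the sizes differ was not tested. Summed levels of 12 myogenic markers were 24170 to 24810 CPM (counts per 1000000 counts after TMM scaling) in control and 20540 to 23130 CPM in cKO. The highest control means were those of Myh3 (10900 CPM), Acta1 (6086 CPM), Des (3228 CPM) and Myog (2131 CPM). Pax7, the satellite cell marker, had a control mean of 39.7 CPM and Myf5 of 69.1 CPM, so the sum says little about these 2. Of the 12 markers, 10 were lower in cKO. All 15 macrophage markers were higher in cKO, as were 7 of the 11 tested of 12 fibroblast markers and 6 of 12 endothelial markers, a count that was 3 without control replicate 2, control replicate 3 or cKO replicate 2. Their summed levels are given beside those of Ccnd2 below.

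Of the 10 genes, 4 passed the test at an adjusted p under 0.05 (edgeR quasi-likelihood test, Benjamini-Hochberg adjustment over 22404 genes). Ccnd2 and Ccnd1 were higher in cKO, and Cdkn1a and Rb1 were lower. Across all genes tested 15.8% were called, 9.38% higher and 6.46% lower. At an unadjusted p under 0.05 there were 7 of the 10 genes, 2 higher and 5 lower, beside 6176 of the 22404 genes, 3331 higher and 2845 lower. The levels of 8 genes did not overlap between the groups, 2 higher and 6 lower, against 31.8% of all genes in either direction, 16.8% higher and 15.0% lower. With counts scaled to the total alone, 6 did not overlap, 3 higher and 3 lower. The share over all genes was not counted with that scaling, which put the median log2 fold change of all genes tested at 0.02. The log2 fold change was below 0 for 7 of the 10, and their median was -0.10, beside -0.001 over all genes tested.

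**Figure D1:**
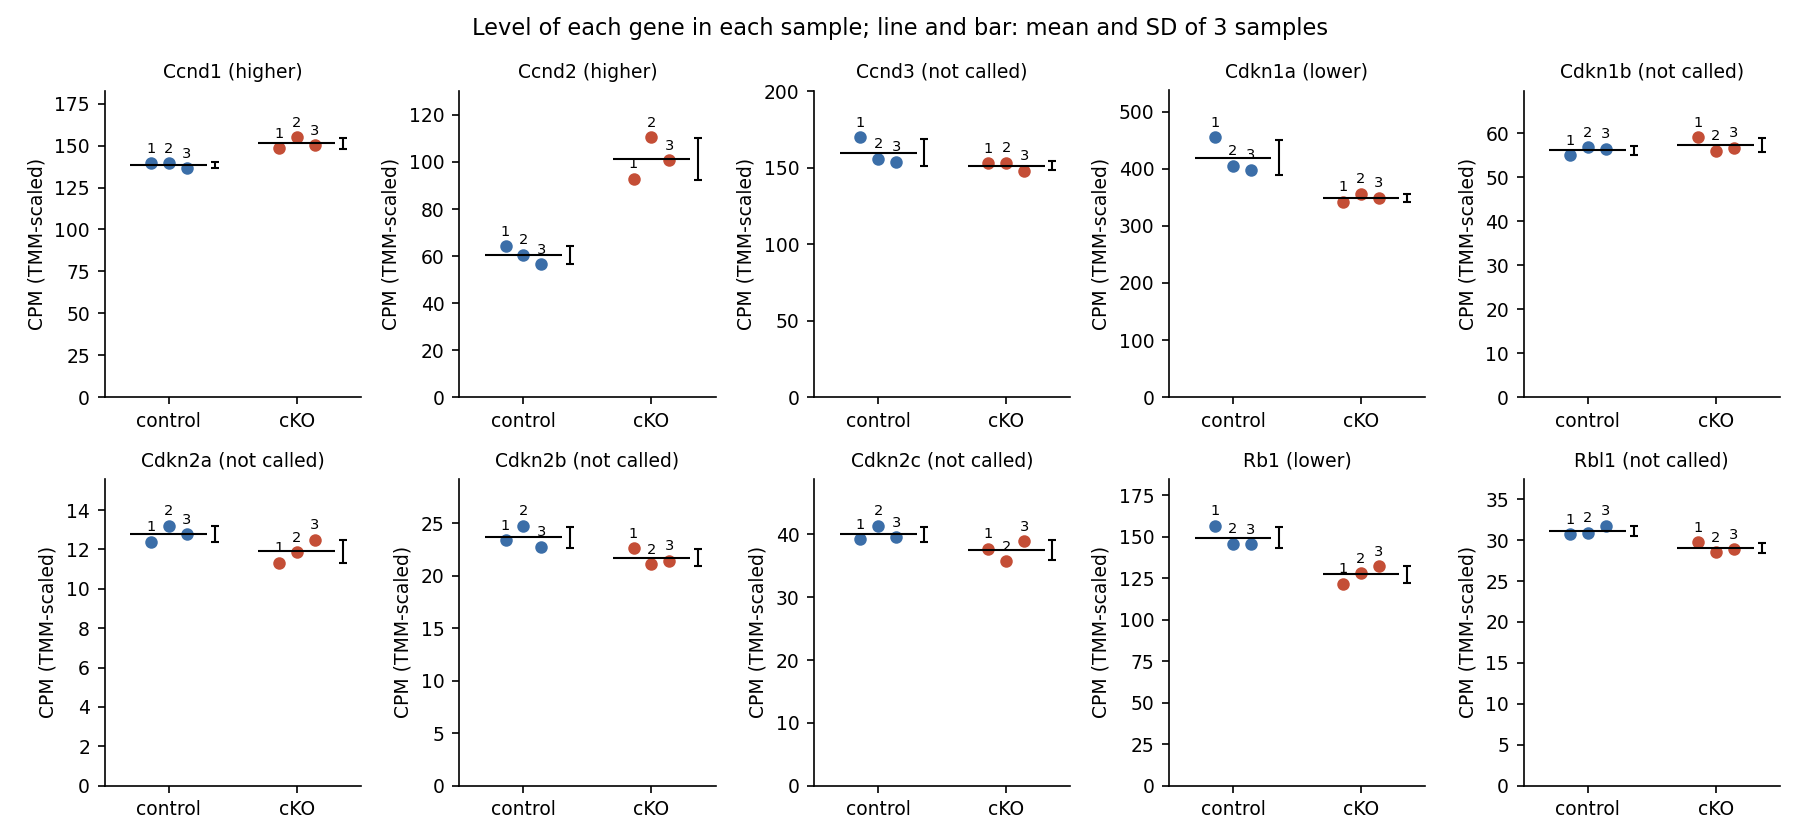
Level of each of the 10 genes in each sample, in CPM after TMM scaling, with the axis starting at 0. Points are samples with their replicate number, lines are the means and bars the SD of 3 samples. Ccnd2 shows the widest gap for its level, with every cKO sample above 92 CPM and every control sample below 65 CPM, while the Cdkn1b samples of both groups are interleaved.

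Among the D cyclins, Ccnd2 changed most. Ccnd2 (ENSMUSG00000000184, mm10 chr6:127125162-127152193, minus strand) is the D cyclin whose transcription is classically induced by mitogens and MYC. Its level was 64.1, 60.6 and 56.6 CPM in the control samples and 92.8, 110.5 and 100.8 CPM in the cKO samples. The lowest cKO sample thus lay well above the highest control sample. The means were 60.4 ± 3.75 CPM and 101.4 ± 8.89 CPM (SD, n = 3 each), which is a log2 fold change of 0.75 (SE 0.06, 95% interval 0.63 to 0.87, adjusted p = 2.2e-07), or 68.0% higher. This change exceeded that of 72.1% of the 2101 genes called higher, whose median was 0.41. Leaving out any sample kept the log2 fold change between 0.68 and 0.81.

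Within the cKO group Ccnd2 was highest in replicate 2, and so were the summed macrophage, fibroblast and endothelial markers. Between cKO replicates 1 and 3, Ccnd2 and the endothelial sum were higher in replicate 3. The macrophage sum and the fibroblast sum (1559 against 1541 CPM) were higher in replicate 1. In control replicate 1 the fibroblast sum was lowest (1135 CPM), while Ccnd2 and the macrophage and endothelial sums were highest. Most of the fibroblast sum came from Col1a2 and Col3a1, with control means of 591 and 397 CPM. Its order therefore says little about lower fibroblast markers such as Pdgfra (23.1 CPM) and Thy1 (28.8 CPM). The macrophage sum was 159.0, 153.9 and 153.1 CPM in control and 331.3, 368.3 and 318.2 CPM in cKO. The fibroblast sum had means of 1180 ± 39.8 CPM in control and 1599 ± 86.1 CPM in cKO, and the endothelial sum 34.9 ± 1.06 CPM and 52.6 ± 4.85 CPM (SD, n = 3 each). None of these markers was at 0 in every sample. Their part in the higher Ccnd2 level was not tested, and in bulk RNA more or fewer cells of a type and more or less RNA per cell cannot be told apart. Without cKO replicate 2 the Ccnd2 log2 fold change was 0.68 (SE 0.05, adjusted p = 6.23e-08).

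The 3 protein-coding genes whose log2 levels followed Ccnd2 most closely over the 6 samples were Siglecg (Pearson r = 0.9995), Map6 (r = 0.9981) and Rbpms (r = 0.998), out of 11718 genes with a mean count of at least 100. Siglecg, a lectin known from B cells and other leukocytes, went from 6.66, 6.28 and 5.64 CPM to 12.5, 16.4 and 13.9 CPM. Map6, a microtubule-stabilising protein, went from 25.4, 24.4 and 23.3 CPM to 39.2, 47.3 and 44.1 CPM. Rbpms, an RNA-binding protein, went from 2.69, 2.63 and 2.34 CPM to 4.56, 5.48 and 4.80 CPM. Each was highest in cKO replicate 2 and lowest in control replicate 3, as Ccnd2 was. All 4 genes differed between the groups, so each correlation runs over 2 separated sets of 3 samples, and 702 genes reached r of 0.95 or more.

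Ccnd1 rose by a much smaller amount. Ccnd1 (ENSMUSG00000070348, chr7:144929931-144939925, minus strand) is the main growth factor-responsive cyclin of cultured myoblasts. It measured 139.5, 139.5 and 136.7 CPM in control and 148.6, 155.0 and 150.3 CPM in cKO. The groups did not overlap, and the samples within each group were tight. The means were 138.6 ± 1.64 CPM and 151.3 ± 3.31 CPM (SD, n = 3 each), which is a log2 fold change of 0.13 (SE 0.03, 95% interval 0.06 to 0.19, adjusted p = 0.00963), or 9.21% higher. The change was larger than that of 4.28% of the genes called higher. Without control replicate 3 it was 0.12 and no longer passed (adjusted p = 0.0637).

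Ccnd3, the D cyclin known to accumulate in differentiating myocytes, did not pass the test. Ccnd3 (ENSMUSG00000034165, chr17:47505051-47599691, plus strand) measured 169.8, 155.7 and 153.9 CPM in control and 152.8, 153.1 and 147.9 CPM in cKO. Control replicate 1 stood above the other 5 samples, and the remaining control samples were less than 3 CPM above the nearest cKO sample. The log2 fold change was -0.08 (95% interval -0.16 to 0.00, adjusted p = 0.194), and -0.04 without control replicate 1.

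Ratios of reads within a sample do not depend on library scaling. Ccnd2 gave 0.459, 0.434 and 0.414 reads per Ccnd1 read in control and 0.625, 0.713 and 0.670 in cKO. Ccnd3 gave 1.22, 1.12 and 1.13 reads per Ccnd1 read in control and 1.03, 0.988 and 0.984 in cKO. Neither ratio overlapped between the groups, so the mix of D cyclin RNA differed in each cKO sample from each control sample. Counted per kilobase of annotated exon (RPKM), Ccnd2 made up 11.9 ± 0.39% of D cyclin RNA in control and 17.9 ± 1.08% in cKO. The Ccnd3 share was 33.7 ± 0.89% and 28.7 ± 0.81%. The Ccnd1 share, 54.5 ± 1.17% and 53.4 ± 0.38%, overlapped between the groups. By the length of the principal transcript alone, Ccnd2 made up 7.81 ± 0.22% and 12.5 ± 0.87% and Ccnd3 61.9 ± 0.91% and 55.9 ± 1.02%, which are the directions found by the exon length. The Ccnd1 share by that transcript was 30.3 ± 0.99% and 31.6 ± 0.26% without overlap, so its direction depended on the length used. By the exon length, the sum of the 3 genes was 54.0 ± 1.62 RPKM in control and 60.1 ± 1.74 RPKM in cKO.

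**Figure D2:**
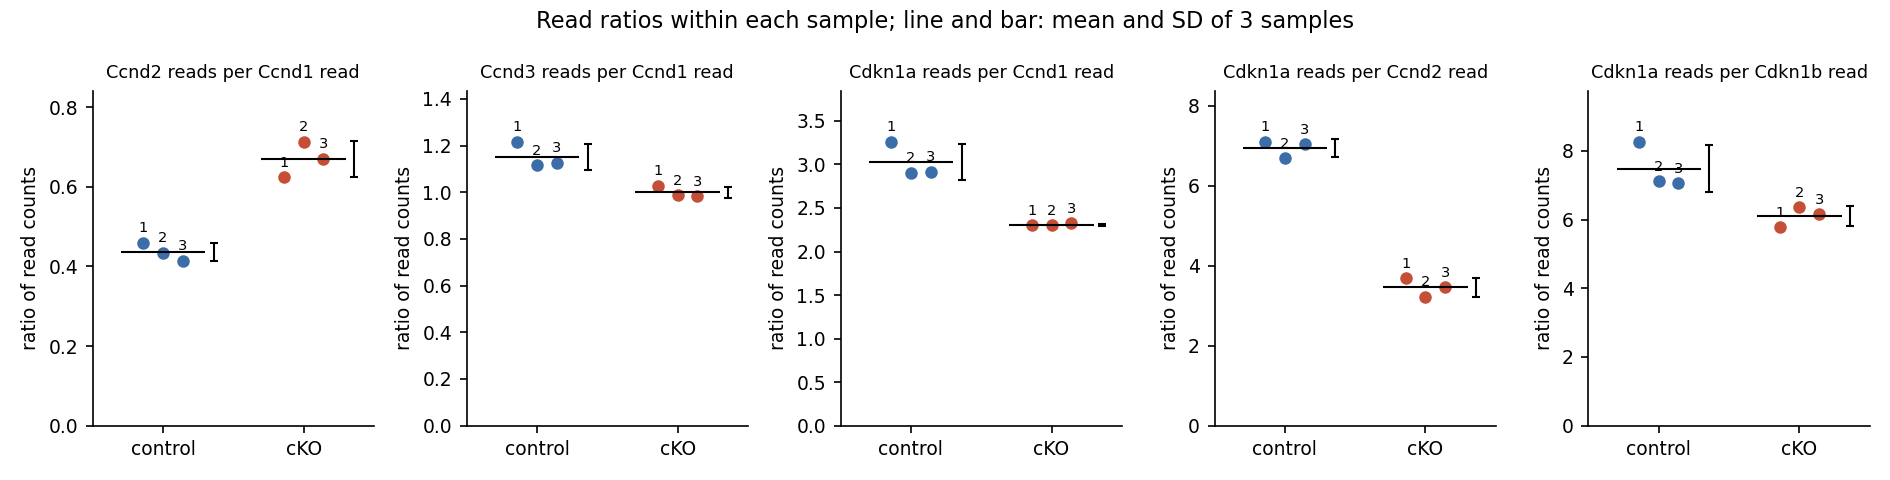
Ratio of the read counts of pairs of genes within each sample, with each axis starting at 0. Points are samples with their replicate number, lines are means and bars SD of 3 samples. Ccnd2 reads per Ccnd1 read are at most 0.459 in control and at least 0.625 in cKO, and Cdkn1a reads per Ccnd2 read are at least 6.69 in control and at most 3.69 in cKO.

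Among the Cip/Kip inhibitors, Cdkn1a fell and Cdkn1b did not pass the test. Cdkn1a (ENSMUSG00000023067, chr17:29090976-29100727, plus strand) encodes p21, a target of both p53 and MYOD. RefSeq places 2 starts in this gene (GRCm38.p6, the mm10 assembly). The stretches just upstream of them are shown because this gene was called and the distal one carries a known p53 element, chr17:29090729-29090975 for the distal start and chr17:29093519-29093768 for the proximal start, both on the plus strand. Capitals mark CATGNNNNNNCATG, the paired cores of a p53 response element, a motif looked for after this sequence had been seen:
Cdkn1a distal: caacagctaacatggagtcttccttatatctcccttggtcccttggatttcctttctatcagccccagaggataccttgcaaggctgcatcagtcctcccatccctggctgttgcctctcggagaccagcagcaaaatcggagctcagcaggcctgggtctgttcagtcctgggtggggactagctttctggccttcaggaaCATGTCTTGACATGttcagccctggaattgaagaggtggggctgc
Cdkn1a proximal: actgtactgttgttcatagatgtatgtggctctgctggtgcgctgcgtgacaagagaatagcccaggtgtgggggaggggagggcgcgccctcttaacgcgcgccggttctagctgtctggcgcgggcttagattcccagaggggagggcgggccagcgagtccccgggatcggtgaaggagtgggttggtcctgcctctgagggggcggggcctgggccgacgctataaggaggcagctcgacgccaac
The paired cores began 48 bases before the distal start and were found in 1 of the 11 windows of 300 bases (250 before to 50 after a start) that RefSeq gave for 7 of the 10 genes, and in 0.712% of 32851 such windows. The E-box CAGCTG, the form preferred by myogenic factors, began at base 38 after the distal start, in capitals in the 30 bases of chr17:29090999-29091028:
Cdkn1a E-box: tgatgatacccaactacCAGCTGtggggtg
That E-box was in 2 of the 11 windows, Cdkn1a and Rbl1, and in 16.3% of all windows. Both strands were searched, and a match is a description of the letters, not of binding.

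Cdkn1a had the most reads of the 10 genes in every sample. It measured 455.1, 405.3 and 398.6 CPM in control and 342.1, 356.5 and 349.1 CPM in cKO. All cKO samples lay below all control samples, and control replicate 1 was the highest. The means were 419.7 ± 30.9 CPM and 349.2 ± 7.19 CPM (SD, n = 3 each), which is a log2 fold change of -0.27 (SE 0.04, 95% interval -0.36 to -0.17, adjusted p = 0.000496) and a percent change of -16.8%. The drop was larger than that of 69.9% of the 1448 genes called lower, whose median was -0.20. Without control replicate 1 it was -0.20 (SE 0.04, adjusted p = 0.00106).

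The level of Cdkn1b (ENSMUSG00000003031, chr6:134920401-134925513, plus strand), which encodes p27, was 55.0, 56.9 and 56.5 CPM in control and 59.1, 56.1 and 56.7 CPM in cKO. The groups overlapped. The log2 fold change was 0.03 with a 95% interval of -0.05 to 0.10 (adjusted p = 0.672). For each Cdkn1b read the control samples held 8.27, 7.12 and 7.05 Cdkn1a reads and the cKO samples 5.79, 6.36 and 6.15, with no overlap. Each Ccnd1 read was matched by 3.26, 2.90 and 2.92 Cdkn1a reads in control, and by 2.31 ± 0.0119 on average in cKO (SD, n = 3). Set against Ccnd2, the ratio was 6.95 ± 0.221 in control and 3.46 ± 0.231 in cKO (SD, n = 3 each). Cdkn1c, the third member of this inhibitor family, which encodes p57, rose from 17.0 ± 0.816 CPM to 23.4 ± 2.28 CPM (log2 fold change 0.46, SE 0.06, adjusted p = 0.00012). The Cip/Kip family therefore held a gene that fell, a gene that rose and a gene that did not pass.

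Of 12 myogenic markers, 10 fell. The median of the list was -0.19 on the log2 scale, beside -0.27 for Cdkn1a and -0.23 for Rb1. Myog, the differentiation factor, fell by 0.20 (adjusted p = 0.000626), Myod1, the determination factor, by 0.16 (adjusted p = 0.00225) and Mef2c, their partner in muscle gene activation, by 0.31 (adjusted p = 3.07e-05) on the log2 scale. Their part in the lower Cdkn1a and Rb1 levels was not tested.

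No INK4 gene passed the test. Cdkn2a (ENSMUSG00000044303, chr4:89274471-89294653, minus strand) and Cdkn2b (ENSMUSG00000073802, chr4:89306299-89311039, minus strand) are neighbours separated by 11645 bases, in the locus known for its rise in senescent cells. Cdkn2a has 2 starts, an upstream one for p19Arf and a downstream one for p16Ink4a, which share their later exons, and the gene-level counts cannot separate them. The stretches upstream of both starts are shown to make clear that 2 promoters feed this single count. They lie at chr4:89294654-89294869 and chr4:89282193-89282442, and capitals mark the E2F sequence TTTCCCGC:
Cdkn2a p19Arf start: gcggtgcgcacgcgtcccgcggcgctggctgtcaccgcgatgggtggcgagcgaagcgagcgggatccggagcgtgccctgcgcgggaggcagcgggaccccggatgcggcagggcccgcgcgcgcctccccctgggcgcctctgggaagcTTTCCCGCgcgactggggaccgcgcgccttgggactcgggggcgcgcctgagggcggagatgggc
Cdkn2a p16Ink4a start: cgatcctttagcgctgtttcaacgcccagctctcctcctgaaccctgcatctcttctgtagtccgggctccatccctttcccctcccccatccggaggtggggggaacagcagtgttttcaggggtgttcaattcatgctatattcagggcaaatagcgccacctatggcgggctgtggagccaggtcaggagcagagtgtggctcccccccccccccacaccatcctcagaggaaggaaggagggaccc
TTTCCCGC began 99 bases before the p19Arf start, in 1 of the 11 windows and in 1.07% of all windows. The related TTTGGCGC was in 0 of the 11 and in 0.514% of all windows. Both strands were searched.

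Cdkn2a had the fewest reads of the 10 genes, with 12.4, 13.2 and 12.8 CPM in control and 11.3, 11.9 and 12.5 CPM in cKO. The groups overlapped, and the log2 fold change was -0.10 (95% interval -0.23 to 0.02, adjusted p = 0.265). Cdkn2b measured 23.4, 24.8 and 22.8 CPM in control and 22.7, 21.1 and 21.4 CPM in cKO. Its lowest control and highest cKO samples were almost equal, and the log2 fold change was -0.13 (95% interval -0.23 to -0.02, adjusted p = 0.0971). Without cKO replicate 1 it passed at -0.15 (adjusted p = 0.0358). Reads of Cdkn2b per read of Cdkn2a overlapped between the groups, 1.85 ± 0.0577 in control and 1.83 ± 0.149 in cKO.

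Cdkn2c (ENSMUSG00000028551, chr4:109660876-109667189, minus strand), which encodes p18Ink4c, measured 39.2, 41.4 and 39.5 CPM in control and 37.7, 35.7 and 38.9 CPM in cKO. The groups did not overlap but came within 1 CPM of each other. Its log2 fold change was -0.10 (95% interval -0.19 to -0.01, adjusted p = 0.145). The fourth INK4 gene, Cdkn2d (p19Ink4d), was at -0.15 (adjusted p = 0.0565). All 4 INK4 genes thus had values below 0 and none was called, and the intervals of the 3 described here reach no higher than 0.02 and no lower than -0.23. Regulators of the Ink4-Arf locus numbered 9, the Polycomb genes such as Bmi1 and Ezh2 and the demethylases Kdm2b and Kdm6b among them. Of these, 4 had an unadjusted p under 0.05, beside 6176 of all 22404 genes tested. By the edgeR test with adjustment 0 of the 9 passed. With DESeq2 the count was also 0.

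Rb1 fell and Rbl1 did not pass the test. Rb1 (ENSMUSG00000022105, chr14:73183673-73325822, minus strand) encodes the retinoblastoma protein. It measured 156.5, 145.6 and 145.5 CPM in control and 121.7, 128.1 and 132.1 CPM in cKO. The highest cKO sample was more than 13 CPM below the lowest control sample. The means were 149.2 ± 6.30 CPM and 127.3 ± 5.25 CPM (SD, n = 3 each), which is a log2 fold change of -0.23 (SE 0.04, 95% interval -0.31 to -0.15, adjusted p = 0.000664) and a percent change of -14.7%. The drop exceeded that of 59.9% of the genes called lower, and without any given sample it lay between -0.26 and -0.20.

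Rbl1 (ENSMUSG00000027641, chr2:157145893-157204534, minus strand) encodes p107, the pocket protein that is most abundant in cycling cells. It measured 30.7, 30.9 and 31.8 CPM in control and 29.7, 28.5 and 28.9 CPM in cKO. The groups did not overlap, but the log2 fold change was -0.10 (95% interval -0.18 to -0.02, adjusted p = 0.106). The spread of Rbl1 between samples, 1.80% in control and 2.12% in cKO as a coefficient of variation, was below that of counting error alone (2.32% and 2.51%). Rbl2 (p130), the pocket protein of quiescent cells, was at -0.09 (adjusted p = 0.344) on the log2 scale. For each Rbl1 read there were 5.10, 4.71 and 4.58 Rb1 reads in control, against 4.09, 4.50 and 4.57 in cKO. These ratios came within 0.02 of each other, and whether both pocket proteins differed in their response was not tested.

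**Figure D3:**
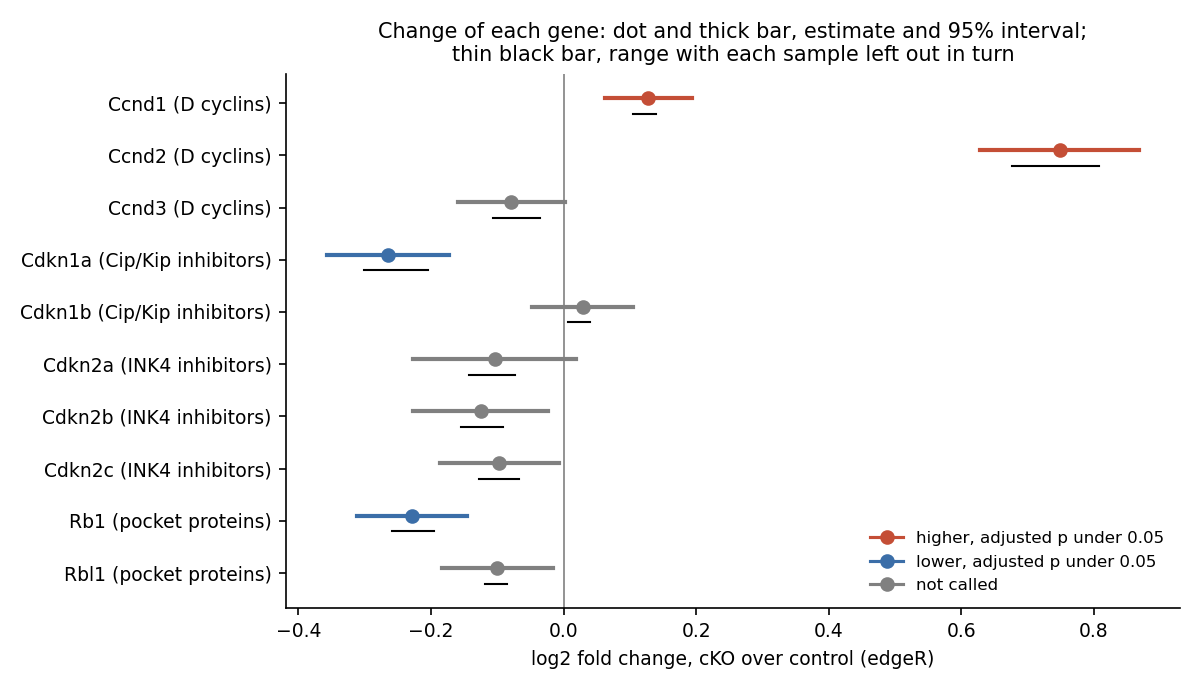
log2 fold change of each of the 10 genes, cKO over control, with its 95% interval (dot and thick bar) and the range of estimates without each sample (thin black bar). Ccnd2 at 0.75 is set apart from Ccnd1 at 0.13, Cdkn1a at -0.27 and Rb1 at -0.23, and no leave-one-out range crosses 0.

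Some exon bases of 5 of these genes are shared with a gene on the opposite strand, and the strand setting of the counting is not given in the sources used here. In Rb1, 14.9% of the exon bases overlap Lpar6, a lysophosphatidic acid receptor gene lying in an Rb1 intron, or Rcbtb2. Lpar6 was counted 670, 708 and 772 times in control, against 628, 949 and 910 times in cKO, and rose by 0.33 on the log2 scale (adjusted p = 0.00696), while Rb1 had 5864 to 9143 counts and fell. Rcbtb2 had 1957 to 2672 counts per sample and a log2 fold change of -0.035 (adjusted p = 0.613). In Ccnd1 the overlap with LTO1 covers 23.4% of the exon bases. LTO1 had 692 to 967 counts per sample and a log2 fold change of -0.09 (adjusted p = 0.292), against 7161 to 9309 counts for Ccnd1. The overlaps were 7.87% in Ccnd2, 7.68% in Cdkn1a and 4.11% in Ccnd3, and the partners of Ccnd2 had at most 4 counts in any sample. Transcript windows of 75 bases, the read length, can also occur in another gene. Their share was 20.6% in Ccnd1, 10.4% in Rb1, 7.05% in Cdkn1a, 5.52% in Ccnd2 and 3.54% in Ccnd3. It was 0 in Cdkn1b, Cdkn2a, Cdkn2b, Cdkn2c and Rbl1. Besides opposite-strand partners, the sharing genes included Trim27 and Syt11 for Cdkn1a and the pseudogene Ccnd3-ps for Ccnd3. How far this made the counts uncertain was not tested.

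Comparing levels between genes needs a length, and the order depended on which length was used. Per kilobase of all annotated exons, Cdkn1a led in control with 118.1 ± 8.69 RPKM, followed by Ccnd1 with 29.4 ± 0.347, Rb1 with 24.8 ± 1.05 and Ccnd3 with 18.2 ± 0.989 RPKM. Cdkn2b (17.0 RPKM), Cdkn2c (14.9 RPKM), Cdkn1b (12.3 RPKM) and Cdkn2a (10.9 RPKM) came next. Ccnd2 was ninth with 6.42 ± 0.399 RPKM, above Rbl1 with 5.19 ± 0.0936 RPKM. Only Ccnd3 and Cdkn2b, neighbours in this order, had overlapping ranges. In cKO Ccnd2 reached 10.8 ± 0.945 RPKM and overlapped Cdkn2a at 10.2 ± 0.494 RPKM, and the other genes kept their order. Per kilobase of the principal transcript, a length chosen after the data were seen, Ccnd3 moved up to rank 2, with 75.6 ± 4.11 RPKM in control and 71.6 ± 1.37 RPKM in cKO against 37.0 and 40.4 RPKM for Ccnd1. The annotation lists 21 transcripts and 8775 exon bases for Ccnd3, and its principal transcript has 2113 bases. Cdkn1a came first by either length in both groups.

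**Figure D4:**
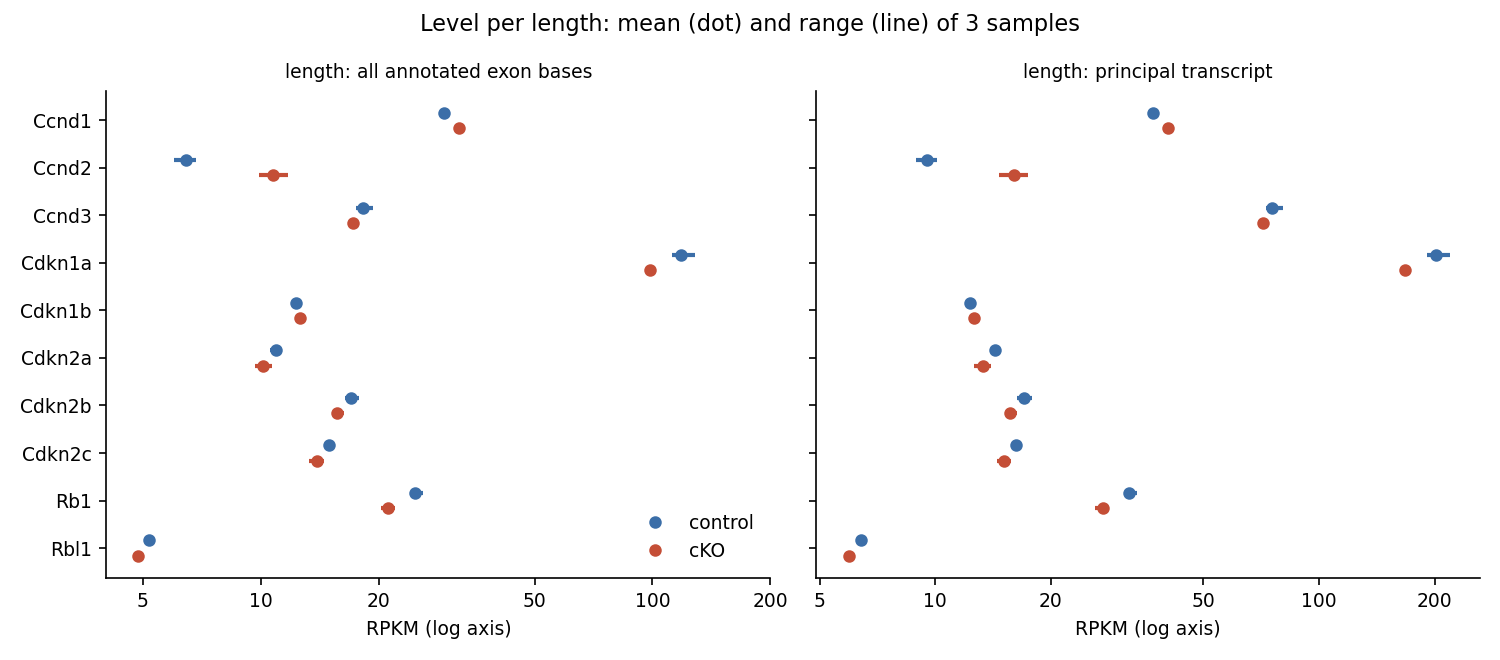
Level of each gene per kilobase (RPKM, log axis) by all annotated exon bases (left) and by the principal transcript (right). Dots are means and lines the range of 3 samples, blue for control and red for cKO. Cdkn1a lies to the right of all others in both panels, and Ccnd3 moves from 18.2 to 75.6 RPKM in control between the panels.

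The catalytic partners of the D cyclins did not pass the test. Cdk4 was at -0.03 (adjusted p = 0.654), Cdk6 at -0.08 (adjusted p = 0.141) and Cdk2, the partner of cyclins E and A, at -0.02 (adjusted p = 0.781) on the log2 scale. Of 13 other genes of the cell cycle engine, 2 were higher and 1 was lower, beside 9.38% higher and 6.46% lower of all genes tested. The higher calls numbered 1 with DESeq2, without a filter on low counts and without control replicate 1, 2 or 3 or cKO replicate 1 or 3. The lower calls numbered 0 with total-count scaling and without control replicate 2 or 3 or cKO replicate 3, and 2 without cKO replicate 1 or 2. Besides Cdkn1c, the phosphatase gene Cdc25a, which removes inhibitory phosphates from CDKs, rose by 0.13 (adjusted p = 0.0299). Ccna2, the S and G2 cyclin, fell by 0.10 on the log2 scale (adjusted p = 0.03).

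Downstream of the pocket proteins, of 10 E2F and DP genes 0 were called higher and 2 were called lower by edgeR and by DESeq2. At an unadjusted p under 0.05 the counts were 1 and 3, beside 3331 and 2845 of all 22404 genes tested. E2f8, an atypical E2F that represses transcription, fell from 102.4 ± 1.83 CPM to 85.7 ± 3.92 CPM (log2 fold change -0.26, adjusted p = 0.000157). E2f2, an activating E2F, fell from 22.4 ± 0.735 CPM to 19.1 ± 0.788 CPM (log2 fold change -0.23, adjusted p = 0.00374). Of 18 S phase genes, many of them E2F targets, 7 were lower and 0 higher by edgeR, with a median log2 fold change of -0.09. At an unadjusted p under 0.05, 10 were lower and 1 higher, and DESeq2 called 6 lower and 0 higher. Lig1, the replicative DNA ligase, fell by 0.21, Mcm6, a subunit of the replicative helicase, by 0.17, and Rrm2, a subunit of ribonucleotide reductase, by 0.17 on the log2 scale. The helicase subunits Mcm3, Mcm5 and Mcm7 were also called lower. Fen1, a flap endonuclease counted at 62 to 88 reads per sample, was at 0.40 and did not pass (adjusted p = 0.0973). Of 7 DREAM and MuvB genes, which repress cell cycle genes in quiescence and activate them in mitosis, 0 passed the edgeR or the DESeq2 test and 4 had an unadjusted p under 0.05. Of 10 genes that act in the turnover of D cyclins, p21 and p27, only Gsk3b, a kinase that marks cyclin D1 for degradation, passed, and it fell by 0.16 on the log2 scale (adjusted p = 0.00321).

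Of Trp53 and 11 of its targets besides Cdkn1a, 4 were higher and 0 lower by edgeR. At an unadjusted p under 0.05 the counts were 4 and 1, beside 3331 and 2845 of all 22404 genes tested. DESeq2 called 3 higher and 0 lower, and 1 was lower without a filter on low counts and without cKO replicate 1. The other 8 did not pass, with log2 fold changes down to -0.12 for Eda2r, a death receptor. Polk, a translesion polymerase, rose from 32.8 ± 0.376 CPM to 40.0 ± 1.36 CPM (log2 fold change 0.29, SE 0.04, adjusted p = 0.000104). Ccng1 rose by 0.14 (adjusted p = 0.00723), Sesn2 by 0.15 (adjusted p = 0.0349) and Mdm2, the ubiquitin ligase that targets p53, by 0.10 on the log2 scale (adjusted p = 0.0341). Trp53 itself was at 0.01 (adjusted p = 0.932). Without control replicate 1, 2 or 3 the higher calls numbered 2, 1 and 2.

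**Figure D5:**
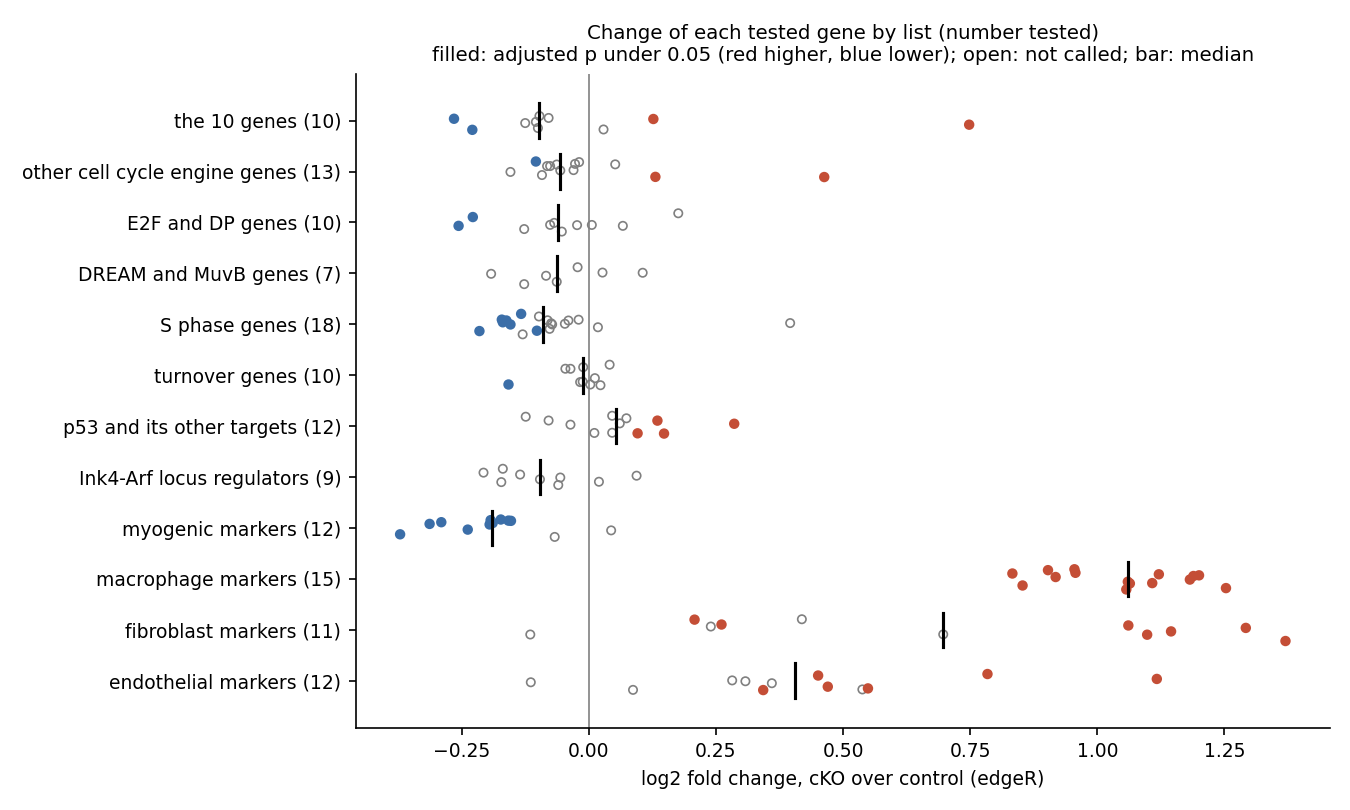
log2 fold change, cKO over control, of every tested gene in each list, with the number tested in parentheses. Filled points passed at an adjusted p under 0.05 (red higher, blue lower), open points did not, and black bars are medians. The medians of the cell cycle lists lie between -0.10 and 0.05, that of the myogenic markers at -0.19 and those of macrophage, fibroblast and endothelial markers at 1.06, 0.70 and 0.41.

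Over the 79 genes of the 7 cell cycle lists, 6 were higher and 11 lower, beside 9.38% higher and 6.46% lower of all genes tested. The median log2 fold change of the 79 was -0.05. The difference of Ccnd2 was the largest in absolute log2 terms among the 10 genes and these 79 genes, where the next was Cdkn1c at 0.46.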

How the data were processed

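The RNA was 400 ng per sample, made into libraries with a stranded total RNA kit after rRNA removal and sequenced as single-end reads of 75 bases. Per the labels and the study's methods, the authors aligned reads to mm10 with Bowtie2 2.3.4.2, which does not split reads over introns, counted them per gene with featureCounts 1.6.3 and ran DESeq2 2.11.40.6. The deposited files used here hold raw counts per gene for each sample. A table of normalized values (6 sample columns) and a table of the authors' fold changes and p-values were not used.

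Genes were kept with filterByExpr, scaled by TMM and tested with edgeR 4.0.16 (glmQLFit, glmQLFTest, R 4.3.3) on 3 control and 3 cKO samples, without covariates, with Benjamini-Hochberg adjustment over 22404 genes and a threshold of 0.05. Intervals are at 95%. All 55536 identifiers matched GENCODE M21, which is on the mm10 assembly. CPM are counts per 1000000 counts of the TMM-scaled library, and RPKM are CPM per kilobase of the merged exons of a gene. Self-tests used simulated data. The paper describes the 3 samples of each group as independent RNA samples, but nothing states that they came from separate mice. The p-values thus measure the spread between these samples, which may be technical, and counting errors cover reads only. The 10 genes, the gene lists and the rule for named genes (all 10, called or extreme genes of each list, and the 3 genes most correlated with Ccnd2) were chosen with earlier results of these data known. Same-numbered control and cKO samples were not treated as paired, since the labels give no pairing. Correlations of their deviations lay between -0.0145 and -0.0045, and those of the other pairs between -0.0074 and 0.0204. Such correlations over all genes cannot exclude a pairing. Alternatives were DESeq2 1.42.0, 2 other scalings, 2 other filters, the replicate block, each sample left out and RPKM by the principal transcript. A result for 1 list gene is not reported here by name.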

Additional observations from a re-analysis of the deposited data

How the results depend on the processing

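No log2 fold change of the 10 genes changed sign under any of the 12 alternatives. Ccnd2, Cdkn1a and Rb1 were called under all 12, with ranges of 0.68 to 0.81, -0.30 to -0.20 and -0.26 to -0.20. Ccnd1 was called under 11, so that 1 of the 10 genes was higher without control replicate 3 (range over samples left out 1 to 2). Cdkn2b was called under 1 alternative, which made 3 of the 10 lower without cKO replicate 1. The genes called lower numbered between 917 and 1673 with 1 sample left out, against 1448 with all samples: 917, 934 and 960 without control replicates 1, 2 and 3. With the replicate block, whose numbers are not stated to pair the samples, 1901 genes were higher and 1251 lower. The 4 calls among the 10 genes were kept. In place of 6, 3 cell cycle list genes were higher, 1 of the engine genes and 2 of the p53 list. In the p53 list 1 was lower, and 0 engine genes were lower. The number of cell cycle list genes called higher was between 2 and 5 with 1 sample left out. It was 3, 2 and 3 without control replicates 1, 2 and 3. The cause of these shifts was not tested. With counts scaled to the total alone 70.0% of calls were higher (2462 higher, 1057 lower), against 59.2% by TMM (2101 and 1448). Of the planned settings that move counts over all genes, DESeq2 gave 1603 higher and 1252 lower. With 3 samples per group, changes near 0.1 on the log2 scale, as in the INK4 genes and Rbl1, lay at the limit of what the test called.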
